A study of Mus musculus with 2 samples.

Results

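The genes described here encode myeloid C-type lectin receptors (Clec4d, Clec4e, Clec4n, Clec5a, Clec7a and Clec12a), receptors of the TREM family (Trem1 and Trem3) and a pair of transmembrane adaptors (Tyrobp and Hcst). They were taken by gene symbol, and all 10 were found among the 24346 symbols of both tables. RNA was sequenced from Gr-1+ CD11b+ cells, a gate that holds neutrophils and monocytes, of BALB/c mice that had received DSS (dextran sulfate sodium, which inflames the colon) at 3% over 6 days. One library came from cells stimulated for 2.5 hours with ATPγS, a slowly hydrolysed ATP analogue that activates nucleotide receptors (n = 1), and the other from cells stimulated without it (control, n = 1). The DSS treatment is shared by both groups, so no library from mice without colitis enters here. The number and age of the mice, any pooling and any genetic modification are not stated in the labels. The differences have no replicate check, and no p-value was computed.

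C-type lectin receptors and TREMs let neutrophils and macrophages sense microbial glycans, crystals and products of dying cells. Most of them have short cytoplasmic tails and signal through an adaptor whose tail carries an immunoreceptor tyrosine-based activation motif (ITAM), a pair of tyrosines that recruits the kinase SYK once phosphorylated. DAP12, the product of Tyrobp, serves Trem1, Trem3 and Clec5a in this way. The Fc receptor gamma chain, the product of Fcer1g, serves Clec4d, Clec4e and Clec4n. DAP10, the product of Hcst, carries a YINM motif that recruits phosphoinositide 3-kinase. Downstream of SYK, the CARD9, BCL10 and MALT1 proteins pass the signal on to NF-κB. Clec7a (Dectin-1) carries a single-tyrosine activation motif (hemITAM) of its own, and Clec12a (MICL) an inhibitory motif (ITIM).

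The coding bases of these motifs are shown because they divide the genes by the way they signal. They are read from GENCODE M21 transcripts (GRCm38, the C57BL/6J reference rather than BALB/c), 5′ to 3′ on the coding strand, with the codons of the motif's tyrosines in capitals and up to 3 codons on either side.
Tyrobp ITAM: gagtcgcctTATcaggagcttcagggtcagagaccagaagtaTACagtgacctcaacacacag
Fcer1g ITAM: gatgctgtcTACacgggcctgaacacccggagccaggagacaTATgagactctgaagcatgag
Hcst YINM: ggtagagtcTACatcaacatgcctggcaga
Clec7a hemITAM: gaagatggaTATactcaattagacttcagc
Clec12a ITIM: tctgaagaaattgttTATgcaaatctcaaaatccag
The Tyrobp motif spans codons 92 to 106 of 114, and the Fcer1g motif codons 65 to 79 of 86, so both lie near the end of the protein. The Hcst motif spans codons 72 to 75 of 79. In the receptors the motifs lie at the other end, at codons 15 to 18 of 244 in Clec7a and 5 to 10 of 267 in Clec12a.

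By the GENCODE M21 annotation (GRCm38), 6 of the genes lie on chromosome 6, in 3 places. Clec5a lies at chr6:40574894-40585821. Clec4n (chr6:123229843-123247021), Clec4d (chr6:123262111-123275265) and Clec4e (chr6:123281789-123289870) are neighbours, and Clec12a (chr6:129342691-129365303) and Clec7a (chr6:129461591-129472779) lie further on. Trem1 (chr17:48232768-48246924) ends 852 bases before Trem3 (chr17:48247777-48258841) on the same strand. Tyrobp (chr7:30413760-30417585) and Hcst (chr7:30417712-30419854) are on opposite strands and end 126 bases from each other. A processed pseudogene on the opposite strand overlaps 2431 bases of the Trem1 gene. The library preparation does not mark strand, so strand cannot tell reads of the pair apart. Of the 2944 short stretches of the longest coding Trem1 transcript compared below, 0 occurred in a transcript of another gene.

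The neighbours are related but not near-identical. Over aligned coding bases, Clec4d and Clec4e were 62.9% identical, Clec4d and Clec4n 61.2%, Clec4e and Clec4n 62.2%, and Trem1 and Trem3 65.7%. Their longest shared runs were 9, 10, 11 and 10 bases. Of the 50-base stretches of each gene's longest coding transcript, 0 occurred in a transcript of another gene for 9 of the 10 genes. For Clec4n, 11 of 1180 (0.932%) also occurred in the predicted gene Gm44147.

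The values are FPKM, fragments scaled by transcript length and by library size, so levels can be set beside each other across genes. From the steps of low values, the smallest fitting total was about 2848000 fragments for the ATPγS library and about 2133000 for the control library. Multiples of these totals would also fit. Of the gate's own genes, Itgam, which encodes CD11b, had 144 FPKM with ATPγS and 112 FPKM in control. Ly6c1 and Ly6c2, which encode the Ly6C part of the Gr-1 antigen, had 166 and 63.7 FPKM with ATPγS, and 133 and 70.9 FPKM in control. Ly6g, the other part, was not analysed here. Markers of other cells were above 0 in both libraries. The summed level of 11 T and NK cell markers was 173 FPKM with ATPγS and 332 FPKM in control. That of 5 macrophage markers was 363 FPKM with ATPγS and 228 FPKM in control, and that of 5 B cell markers 889.9 FPKM with ATPγS and 1249 FPKM in control. In such mixed samples fewer cells of a type and less RNA per cell cannot be told apart.

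Both libraries held high levels of nearly all of these genes, and none differed 1.5-fold. Tyrobp was the highest, with 2073 FPKM with ATPγS (rank 29 of all genes) and 1886 FPKM in control (rank 37). Clec4e followed, with 1151 FPKM with ATPγS (rank 58) and 1109 FPKM in control (rank 55). Clec12a was the lowest, at 13.2 FPKM with ATPγS and 18.0 FPKM in control, still above 80.2% of all genes with ATPγS and 83.7% in control. Together the 10 genes made up 0.86% of all FPKM with ATPγS and 0.766% in control. The sum over the 8 receptor genes was 1.56 times the Tyrobp level with ATPγS and 1.62 times that level in control. Of these receptors only Trem1, Trem3 and Clec5a are named above as DAP12 partners, so this is not a proportion of partners to adaptor. Trem1 and Trem3 together had 0.236 times the Tyrobp level with ATPγS and 0.279 times that level in control.

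**Figure D1:**
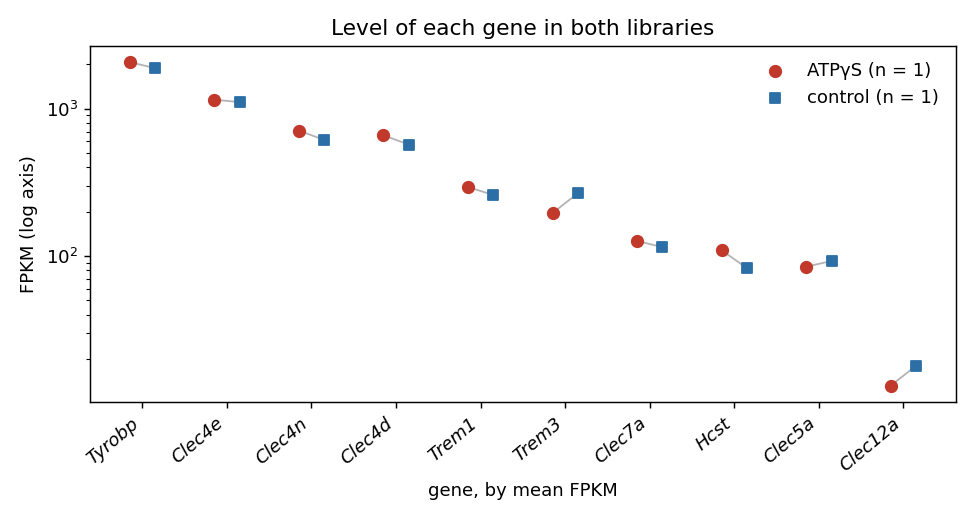
FPKM (log axis) of each gene in the ATPγS library (circles, left) and the control library (squares, right), 1 library each, ordered by mean FPKM. Levels run from Tyrobp (2073 FPKM with ATPγS and 1886 FPKM in control) to Clec12a (13.2 FPKM with ATPγS and 18.0 FPKM in control), and each pair of points lies close together.

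The order of the genes by level was the same in both libraries except for neighbours that changed places. With ATPγS it ran Tyrobp, Clec4e, Clec4n, Clec4d, Trem1, Trem3, Clec7a, Hcst, Clec5a and Clec12a. In control, Trem3 stood before Trem1 and Clec5a before Hcst. The 95% exact counting interval of the Trem1 over Trem3 ratio of levels in control (0.883 to 1.07) and that of Hcst over Clec5a (0.698 to 1.13) include 1, as does that of Clec7a over Hcst with ATPγS (0.962 to 1.39), so those neighbours did not differ beyond counting error in those libraries. In the other library the interval of each of these pairs excluded 1. With ATPγS it was 1.37 to 1.65 for Trem1 over Trem3 and 1.08 to 1.55 for Hcst over Clec5a. In control it was 1.10 to 1.79 for Clec7a over Hcst. The intervals cover counting error only, since repeated PCR copies cannot be told from separate molecules in these values. They rest on reads estimated from the longest annotated transcript of each gene. By the shorter coding lengths, Hcst over Clec5a with ATPγS (0.966 to 1.73) and Clec7a over Hcst in control (0.995 to 2.01) had intervals that include 1. That of Trem1 over Trem3 with ATPγS still excluded it (1.31 to 1.73).

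Of the 10 genes, 0 reached a 2-fold higher level with ATPγS on log2(FPKM + 1), where 13.8% of all 18311 genes averaging 1 FPKM or more did, and 0 reached a 2-fold lower level, where 9.91% did. Many of those are low genes. Among the 6125 genes averaging 10 FPKM or more, where all 10 genes lie, the shares were 4.29% for higher and 7.38% for lower. At 1.5-fold the count of the 10 genes was still 0 in both directions. That threshold was passed by 24.1% (higher) and 20.7% (lower) of genes averaging 1 FPKM or more, and by 11% and 19.8% of those averaging 10 FPKM or more. The log2 ratio was above 0 for 7 of the genes and below 0 for 3, with a median of 0.14, against 0.01 over all genes averaging 1 FPKM or more and -0.13 over those averaging 10 FPKM or more. Each of the 10 log2 ratios also lay between the 10th and the 90th percentile of genes within a factor of 2 of its own mean level.

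**Figure D2:**
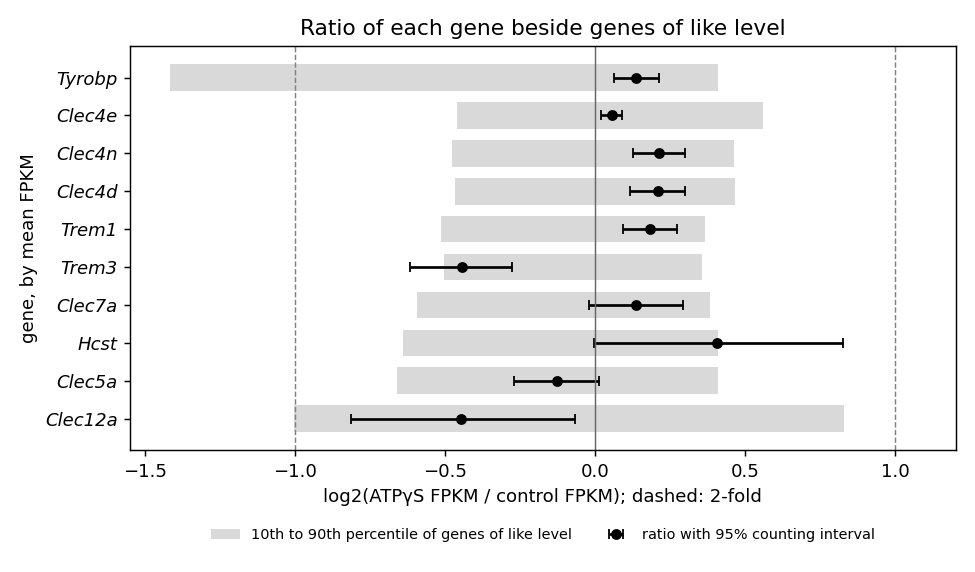
Log2 ratio of the ATPγS over the control level for each gene (points, with 95% counting intervals), and the 10th to 90th percentile of log2 ratios, computed with 1 FPKM added, among genes within a factor of 2 of its mean FPKM (grey bars). All 10 points lie inside the grey bars and inside the dashed 2-fold lines, with Hcst highest and Trem3 and Clec12a lowest.

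Among the receptors that pair with the Fc receptor gamma chain, levels were slightly higher with ATPγS. Clec4d, which encodes MCL, a partner of Mincle, had 660.1 FPKM with ATPγS and 572 FPKM in control, a ratio of 1.15 (counting interval 1.08 to 1.23). Clec4n, which encodes Dectin-2, a receptor for fungal mannans, had 711 FPKM with ATPγS and 614 FPKM in control, a ratio of 1.16 (1.09 to 1.23). Clec4e encodes Mincle, a receptor for mycobacterial cord factor and for a protein of dying cells, and its ratio was 1.04 (1.01 to 1.06). By coding lengths the Clec4e interval includes no difference (0.971 to 1.11). Of genes within a factor of 2 of its mean level, 48.6% had a lower log2 ratio. These 3 neighbouring genes together had 2523 FPKM with ATPγS and 2295 FPKM in control, which is 46.6% (ATPγS) and 45.8% (control) of the summed level of the 10 genes.

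The proportion of Clec4n to Clec4d was close in the libraries, and Clec4e was lower relative to both with ATPγS. The level of Clec4n over that of Clec4d was 1.08 with ATPγS (1.02 to 1.14) and 1.07 in control (1.004 to 1.15). Both intervals included 1 when reads were estimated from the shorter coding length (0.995 to 1.17 with ATPγS and 0.973 to 1.18 in control). The level of Clec4e over that of Clec4d was 1.74 with ATPγS (1.67 to 1.82) and 1.94 in control (1.84 to 2.05), intervals that do not overlap. That of Clec4e over Clec4n was 1.62 with ATPγS (1.56 to 1.69) and 1.81 in control (1.72 to 1.90), which do not overlap either. Such proportions within a library do not depend on how the libraries are scaled against each other. With reads estimated from the shorter coding length, the intervals of Clec4e over Clec4d overlapped (1.63 to 1.87 with ATPγS and 1.78 to 2.12 in control), as did those of Clec4e over Clec4n (1.51 to 1.74 with ATPγS and 1.66 to 1.97 in control).

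The remaining lectins were lower in level and split in direction. Clec7a, the β-glucan receptor gene whose own motif is shown above, had 126 FPKM with ATPγS and 115 FPKM in control, a ratio of 1.10 (0.985 to 1.23). Clec5a, which encodes MDL-1, a DAP12 partner that binds dengue virus, had 84.7 FPKM with ATPγS and 92.6 FPKM in control, a ratio of 0.914 (0.828 to 1.01). Both intervals include no difference. Clec12a, the inhibitory receptor of this group, had a ratio of 0.734 (0.569 to 0.954), from about 122 reads with ATPγS and 124 in control. Its interval includes no difference when reads are estimated from the median transcript length (0.503 to 1.05).

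Within the TREM family, the neighbours Trem1 and Trem3 had ratios on opposite sides of 1. Trem1, which encodes an amplifier of neutrophil and monocyte inflammation, had 294 FPKM with ATPγS and 259.6 FPKM in control, a ratio of 1.13 (1.06 to 1.21). Trem3, another activating DAP12 partner in mouse, had 196 FPKM with ATPγS and 267 FPKM in control, a ratio of 0.734 (0.651 to 0.826). Thus Trem1 was higher with ATPγS and Trem3 lower, beyond counting error for both by the longest transcript. By coding lengths the Trem1 interval includes no difference (0.994 to 1.29), while that of Trem3 stayed below 1 (0.626 to 0.862). The level of Trem1 over that of Trem3 was 1.502 with ATPγS (1.37 to 1.65) and 0.973 in control (0.883 to 1.07), and these intervals did not overlap with coding lengths either (1.31 to 1.73 with ATPγS and 0.837 to 1.13 in control). Replicate error of this proportion is unknown, and the part of the overlapping pseudogene in the Trem1 value was not tested.

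The adaptor genes Tyrobp and Hcst had ratios above 1, and Fcer1g, given below, had one under 1. Tyrobp had a ratio of 1.10 (1.04 to 1.16). Hcst had 109 FPKM with ATPγS and 82.7 FPKM in control, a ratio of 1.32 (0.997 to 1.77) on an estimated 138 reads with ATPγS and 78 in control. Its interval includes no difference. Hcst is also used by T and NK cells, where DAP10 carries signals of the receptor NKG2D. Among the 11 lymphocyte markers above, 6 reached a 2-fold lower level with ATPγS and 1 a 2-fold higher one, and 0 were listed at 0 in either library. Klrk1, the NKG2D gene, had 13.6 FPKM with ATPγS and 25.4 FPKM in control. Of the 11 markers, 8 had a log2 ratio below 0, and Gzma (66.1 FPKM with ATPγS and 45.8 FPKM in control), Cd247 (11.8 FPKM with ATPγS and 10.9 FPKM in control) and Klrb1c (2.70 FPKM with ATPγS and 0.75 FPKM in control) lay above it. The part of these cells in the Hcst level was not tested. Tyrobp exceeded Hcst 18.9-fold with ATPγS and 22.8-fold in control. Fcer1g, the other ITAM adaptor gene, had 1586 FPKM with ATPγS and 1691 FPKM in control, a ratio of 0.938 (0.889 to 0.990). By coding lengths the Fcer1g interval includes no difference (0.863 to 1.02). Tyrobp over Fcer1g was 1.31 with ATPγS (1.24 to 1.37) and 1.12 in control (1.05 to 1.18).

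Macrophage markers, whose cells share Tyrobp, Clec4n and Clec7a with neutrophils, had log2 ratios above 0 for 5 of 5, and 1 of them, C1qc, was at least 2-fold higher with ATPγS (34.2 FPKM with ATPγS and 12.5 FPKM in control). None was listed at 0. Of 5 monocyte markers, 2 lay above 0 and 3 below, with a summed level of 574 FPKM with ATPγS and 534 FPKM in control. Nr4a1 made up most of this sum (364 FPKM with ATPγS and 315 FPKM in control), and Csf1r was the other marker above 0. Ccr2, Ms4a6c and Fcgr1 lay below. Neutrophil markers lay above 0 for 3 of 7, with a summed level of 39869 FPKM with ATPγS and 37034 FPKM in control. Most of that sum was S100a8 (22410 FPKM with ATPγS and 20604 FPKM in control) and S100a9 (14942 FPKM with ATPγS and 13776 FPKM in control). Cxcr2, Retnlg, Mmp8 and Mmp9 had log2 ratios below 0. The part of these cells in the levels of the 10 genes was not tested.

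The genes nearest in level over the 2 libraries were found by the distance of log2(FPKM + 1). For Clec4e they were Ctsz, which encodes cathepsin Z, the pseudogene Atp6v0c-ps2 and the chaperone gene Hspa8 (distances 0.155, 0.185 and 0.223). For Trem1 they were the complement gene C3, the MHC class II gene H2-Eb1 and the neutrophil granule gene Ngp (0.0162, 0.0679 and 0.0883). For Tyrobp they were Irg1, which encodes the enzyme that makes itaconate, the tetraspanin gene Cd9 and the neutrophil gene Retnlg (0.112, 0.162 and 0.168). Over only 2 libraries this likeness says no more than that both levels are close.

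Other myeloid C-type lectins all stood below Clec5a in level, and 4 of them, Cd302, Clec4a2, Clec4a3 and Clec2d, stood above Clec12a in both libraries, Clec2d narrowly so in control (18.5 FPKM). Of 19 such genes, 17 averaged 1 FPKM or more. Of these, 3 were 2-fold or more higher and 3 were 2-fold or more lower with ATPγS, with a median log2 ratio of -0.38. Clec1b, which encodes CLEC-2, a platelet receptor, had 13.7 FPKM with ATPγS and 5.89 FPKM in control (ratio 2.33, 1.70 to 3.20). The platelet marker genes Pf4 (52.9 FPKM with ATPγS and 13.6 FPKM in control) and Itga2b (6.64 FPKM with ATPγS and 1.57 FPKM in control) were higher as well. Of 4 platelet and red cell markers 0 were listed at 0, with a sum of 675 FPKM with ATPγS and 740.2 FPKM in control that is mostly the globin gene Hba-a1. Their part in the Clec1b value was not tested. The other higher genes, chosen after their values were seen, were Clec4b2 (5.22 FPKM with ATPγS and 0.872 FPKM in control) and Clec4f (4.46 FPKM with ATPγS and 0.827 FPKM in control), with about 2 and 4 reads in control. The lower ones, chosen in the same way, were the dendritic cell lectin Clec9a (0.198 FPKM with ATPγS and 4.82 FPKM in control), the macrophage and dendritic cell lectin Clec10a (0.421 FPKM with ATPγS and 3.10 FPKM in control) and Clec4g (0.796 FPKM with ATPγS and 2.83 FPKM in control), each with about 2 or 3 reads with ATPγS.

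The 3 most abundant of these lectins, Cd302, Clec4a2 and Clec4a3, were lower with ATPγS. Cd302 had 37.2 FPKM with ATPγS and 59.2 FPKM in control (ratio 0.628, 0.498 to 0.787). Clec4a2, which encodes the inhibitory receptor DCIR, had 32.4 FPKM with ATPγS and 42.4 FPKM in control (0.764, 0.634 to 0.925), and its relative Clec4a3 19.6 FPKM with ATPγS and 31.8 FPKM in control (0.615, 0.449 to 0.857). Cd209a, a dendritic cell lectin gene, had 10.2 FPKM with ATPγS and 15.1 FPKM in control, with an interval that includes no difference (0.434 to 1.03).

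Of 4 other TREM family genes, 0 reached 2-fold in either direction. Treml4, a receptor of myeloid cells, was the only one at a level like that of Trem1, with 239 FPKM with ATPγS and 198 FPKM in control (ratio 1.21, 1.10 to 1.32). Treml2 had 5.74 FPKM with ATPγS and 8 FPKM in control, with an interval that includes no difference (0.502 to 1.02). The abundant TREM transcripts of these cells were therefore Trem1, Treml4 and Trem3, and Trem3 was the 1 of them below 0.

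**Figure D3:**
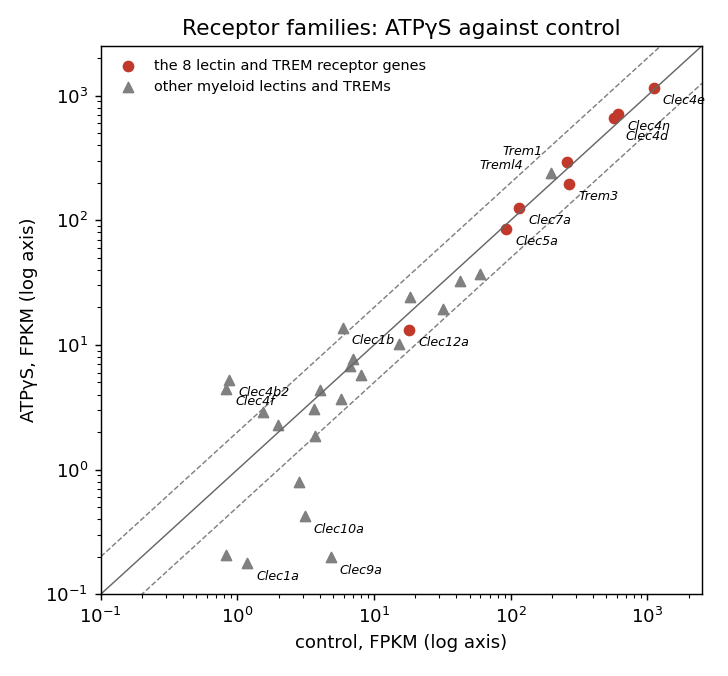
FPKM with ATPγS against FPKM in control (log axes) for the 8 lectin and TREM receptor genes described here (circles) and for other myeloid lectins and TREMs (triangles), with the line of equality and dashed 2-fold lines. The circles lie along the line from Clec12a (13.2 FPKM with ATPγS and 18.0 FPKM in control) up to Clec4e (1151 FPKM with ATPγS and 1109 FPKM in control), while the triangles outside the 2-fold lines lie at low levels.

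Among other adaptors and receptors that use such adaptors, 13 genes were matched, 11 averaged 1 FPKM or more, 0 were 2-fold or more higher and 2 were 2-fold or more lower with ATPγS (median log2 ratio 0.09). The lower ones were Cd200r3 (2.28 FPKM with ATPγS and 10.1 FPKM in control, ratio 0.225, 0.137 to 0.352) and Cd200r4 (5.29 FPKM with ATPγS and 13.9 FPKM in control, ratio 0.381, 0.237 to 0.601), DAP12 partners of which the first marks basophils. The basophil protease gene Mcpt8 had 3.04 FPKM with ATPγS and 12.2 FPKM in control. Of the 4 eosinophil, basophil and mast cell markers averaging 1 FPKM or more, Mcpt8 and Siglecf had a log2 ratio below 0, while Cpa3 (5.90 FPKM with ATPγS and 3.80 FPKM in control) and Prg2 (7.38 FPKM with ATPγS and 5.22 FPKM in control) lay above it. The sum of all 5 markers was 31.1 FPKM with ATPγS and 40.6 FPKM in control, 0 were listed at 0, and their part in these values was not tested. Siglech, a DAP12 partner of plasmacytoid dendritic cells, had 14.0 FPKM with ATPγS and 6.79 FPKM in control. Pilrb1, an activating DAP12 partner and after Fcer1g the most abundant of the list, had 118 FPKM with ATPγS and 115 FPKM in control (ratio 1.03, 0.906 to 1.16).

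Of 18 proximal kinases and scaffolds, 0 were 2-fold or more higher and 1 was 2-fold or more lower, with a median log2 ratio of -0.16. That gene was Plcg2, which encodes the phospholipase that turns SYK signals into calcium release, at 7.23 FPKM with ATPγS and 25.8 FPKM in control (ratio 0.280, 0.216 to 0.358). Pik3cd, of a phosphoinositide 3-kinase, was lower too (21.3 FPKM with ATPγS and 33.6 FPKM in control, ratio 0.634, 0.542 to 0.742). Btk, of a TEC family kinase (30.7 FPKM with ATPγS and 19.3 FPKM in control), and Lat2, of a scaffold (34.4 FPKM with ATPγS and 22.4 FPKM in control), were higher, with ratios of 1.59 (1.25 to 2.02) and 1.54 (1.17 to 2.02). Syk itself, chosen after its values were seen, had 53.1 FPKM with ATPγS and 59.9 FPKM in control. The most abundant member was Pik3ap1, of an adaptor of the same lipid kinase (293 FPKM with ATPγS and 209 FPKM in control).

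The CARD9 module lay on both sides of 0. Of 9 genes, 1 was 2-fold or more higher and 0 were 2-fold or more lower, with a median log2 ratio of -0.16 and a mean of 0.15, which differ in sign. The higher one, Card9, chosen after its values were seen, had 4.85 FPKM with ATPγS and 1.81 FPKM in control, from about 27 reads with ATPγS and 8 in control (ratio 2.67, 1.12 to 6.44). Its partners Bcl10 (101 FPKM with ATPγS and 122 FPKM in control, ratio 0.826, 0.739 to 0.922) and Malt1 (17.4 FPKM with ATPγS and 22.5 FPKM in control, ratio 0.776, 0.661 to 0.910) were lower. Traf6, of a ubiquitin ligase (10.7 FPKM with ATPγS and 7.15 FPKM in control), and Ikbkg, of the regulatory subunit of the IκB kinase (10.3 FPKM with ATPγS and 7.21 FPKM in control), were higher, and Ikbkb, of a catalytic subunit of that kinase (20.9 FPKM with ATPγS and 26.2 FPKM in control), was lower.

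Of 12 matched genes of phosphatases, inhibitory receptors and other brakes, 0 were 2-fold or more higher and 1 was 2-fold or more lower, with a median log2 ratio of -0.14. The lower one, Dok1, of an inhibitory scaffold, was chosen after its values were seen and had 1.36 FPKM with ATPγS and 6.82 FPKM in control, from about 8 reads with ATPγS and 29 in control. Ptpn6, which encodes the phosphatase SHP-1 that ITIM receptors such as Clec12a recruit, was the most abundant, at 418 FPKM with ATPγS and 466 FPKM in control (ratio 0.896, 0.847 to 0.947). Siglece, of an inhibitory sialic acid receptor, had 164 FPKM with ATPγS and 191 FPKM in control, and Inpp5d, of the lipid phosphatase SHIP-1, 38.6 FPKM with ATPγS and 46.7 FPKM in control. Lair1, of an inhibitory collagen receptor, had 7.48 FPKM with ATPγS and 10.5 FPKM in control (ratio 0.715, 0.565 to 0.903). Ptpn11, of the phosphatase SHP-2, was higher (8.08 FPKM with ATPγS and 5.17 FPKM in control, ratio 1.56, 1.19 to 2.06), as was Pilra, of the inhibitory counterpart of Pilrb1 (161 FPKM with ATPγS and 137 FPKM in control, ratio 1.18, 1.07 to 1.29).

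Among 10 genes of reported ligands, 1 was 2-fold or more higher and 1 was 2-fold or more lower, with a median log2 ratio of -0.04 and a mean of 0.07, which differ in sign. Both, chosen after their values were seen, encode ligands of NKG2D: Raet1d (4.73 FPKM with ATPγS, listed at 0 in control) and Raet1e (2.45 FPKM with ATPγS and 6.17 FPKM in control). The annotated span of Raet1d (chr10:22360552-22374139) lies within that of Raet1e (chr10:22158569-22374139). The division of reads between them, and any difference of BALB/c from the C57BL/6J reference, were not tested. Pglyrp1, a peptidoglycan-binding protein of neutrophil granules that engages TREM-1, had 149 FPKM with ATPγS and 117 FPKM in control (ratio 1.27, 1.09 to 1.49), on the same side as Trem1. Hmgb1, a nuclear protein released by damaged cells and a reported TREM-1 ligand, had 126 FPKM with ATPγS and 203 FPKM in control (0.623, 0.573 to 0.677). Lgals9, of galectin-9, a ligand of Dectin-1, had 88.1 FPKM with ATPγS and 117 FPKM in control (0.752, 0.653 to 0.867). Vim, of vimentin, had 262 FPKM with ATPγS and 239 FPKM in control (1.10, 1.03 to 1.17), and H60b, of another NKG2D ligand, 10.7 FPKM with ATPγS and 6.38 FPKM in control, with an interval that includes no difference (0.870 to 3.26).

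Of 14 genes that SYK and CARD9 signalling induces in myeloid cells, 0 reached 2-fold in either direction (median log2 ratio 0.12). The largest ratios were those of Csf3, which encodes G-CSF (45.7 FPKM with ATPγS and 26.1 FPKM in control, ratio 1.75, 1.33 to 2.30), and of Ptgs2, of a prostaglandin synthase (194 FPKM with ATPγS and 114 FPKM in control, ratio 1.70, 1.58 to 1.83). Il12b, of an interleukin 12 subunit, lay on the other side (9.34 FPKM with ATPγS and 16.1 FPKM in control, ratio 0.58, 0.397 to 0.848). Cxcl2, of a neutrophil chemokine, had 1452 FPKM with ATPγS and 959 FPKM in control (ratio 1.51, 1.46 to 1.57). Il1b, of interleukin 1β, had 3429 FPKM with ATPγS and 3218 FPKM in control (1.07, 1.04 to 1.09), and the chemokine gene Ccl3 had 2418 FPKM with ATPγS and 1833 FPKM in control (1.32, 1.26 to 1.38). These genes also answer to many other receptors.

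**Figure D4:**
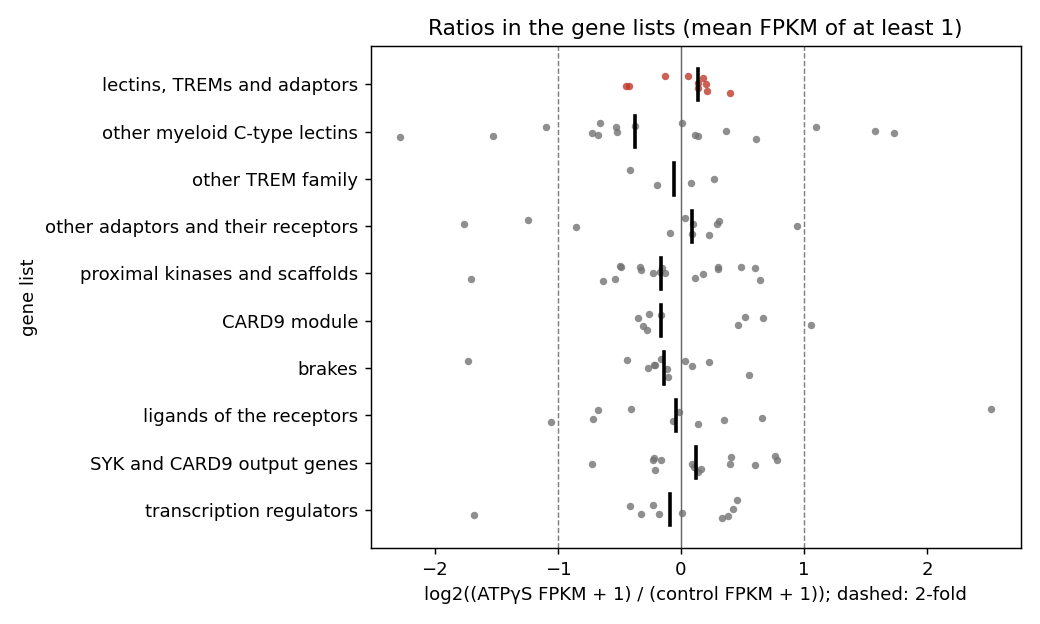
Log2((ATPγS FPKM + 1) / (control FPKM + 1)) of every gene averaging 1 FPKM or more in the list described here (top row) and in 9 lists of related genes, with the median as a black bar and dashed 2-fold lines. The top row spans -0.44 to 0.40, and its 10 points all lie inside the 2-fold lines.

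Of 10 genes of transcription factors known to act on myeloid receptor genes, 0 were 2-fold or more higher and 1, Cebpe, was 2-fold or more lower with ATPγS (median log2 ratio -0.09). Cebpe, a factor of late granulocyte differentiation, had 3.17 FPKM with ATPγS and 12.4 FPKM in control (ratio 0.257, 0.114 to 0.506). Spi1, which encodes PU.1, the factor that drives many myeloid genes, had 383 FPKM with ATPγS and 381 FPKM in control (1.004, 0.942 to 1.07). Cebpb, of the factor through which Mincle was first described as inducible, had 804 FPKM with ATPγS and 617 FPKM in control (1.30, 1.23 to 1.38). Its relative Cebpd had 34.0 FPKM with ATPγS and 24.6 FPKM in control (1.38, 1.16 to 1.66), and Runx1, of a blood cell factor, 7.38 FPKM with ATPγS and 10.2 FPKM in control (0.727, 0.561 to 0.937).

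Upstream sequences are shown for the lectins at the top and at the bottom of the level order, Clec4e and Clec12a. They are the 130 bases before the RefSeq start (GRCm38.p6) in the direction of the gene, with matches to the PU.1 core GAGGAA or its reverse TTCCTC in capitals.
Clec4e, chr6:123289872-123290001, minus strand: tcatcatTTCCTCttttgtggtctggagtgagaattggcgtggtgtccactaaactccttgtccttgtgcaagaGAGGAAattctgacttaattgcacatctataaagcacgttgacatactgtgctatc
Clec12a, chr6:129350114-129350243, plus strand: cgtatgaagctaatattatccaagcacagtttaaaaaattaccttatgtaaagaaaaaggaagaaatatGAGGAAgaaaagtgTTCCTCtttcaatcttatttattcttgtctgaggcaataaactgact
Both windows hold the core on either strand. Of the 10 genes, 7 had a RefSeq promoter entry, and Clec4n, Trem3 and Tyrobp are named only. In the 250 bases before the start, 6 of these 7 (all but Hcst) held the core on at least 1 strand, against 23.3% of 32851 promoter windows of that length. The C/EBP pattern TTGCNNAA, searched with its reverse TTNNGCAA, was found upstream of Clec4e and Clec12a and in 9.56% of all windows. The NF-κB pattern of GGG, any 3 bases and TTCC, searched on both strands, was found in 0 of the 7 and in 4.65% of windows, and the AP-1 pattern TGANTCA upstream of Clec12a and in 6.75%. The core and C/EBP matches upstream of Clec4e do not overlap. A match describes letters in this window and not binding.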

How the data were processed

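Per the submitters' processing notes, the authors worked on build mm10 with Cufflinks 2.2.1, SAMtools 0.1.19, Bowtie2 2.2.3 and TopHat2 2.0.13. Annotation and options: not given in the sources used here. Per the labels' protocols, the SMART-Seq HT kit gave full-length cDNA and the Nextera kit the libraries, which do not keep strand. The deposited values are FPKM per gene symbol, set by the authors, and hold no counts.

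Ratios are ATPγS over control. Counts used log2((ATPγS FPKM + 1) / (control FPKM + 1)) at a mean FPKM of at least 1 and a threshold of 2-fold, and printed ratios carry no pseudocount. Depth was read from values under 10 reads of olfactory and vomeronasal receptor genes with 1 coding exon. It was the smallest library total at which FPKM times coding length was mostly whole, within 0.05 reads. This held for 71.0% of 586 values with ATPγS and 70.9% of 578 in control, where a total fixed beforehand gives 10% by chance. Multiples of such a total also give whole reads, so the intervals rest on the smallest candidate. Reads were then estimated from GENCODE M21 lengths, found for 95.7% of symbols, and intervals are 95% exact binomial (Clopper-Pearson). With 1 library per group no test was run. Python 3.11.15, scipy 1.17.1 and Biopython 1.88 were used, and the steps were tested on simulated data.

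In each list of related genes, values are given for up to 4 genes with the largest log2 ratio, in absolute size, at a mean FPKM of at least 5, and for the 2 most abundant. A gene picked outside this rule is marked where it is named. The results of 2 genes under this rule are not reported here. The genes and lists were chosen with earlier results of these data known. Sirpb1c, Lilrb4 and Gp49a were not analysed here. Alternatives were pseudocounts of 0.1 and 5, other scalings, filters, thresholds of 1.5-fold and 3-fold, means, and other transcript lengths.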

Additional observations from a re-analysis of the deposited data

How the results depend on the processing

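The 0 of 10 genes 2-fold or more higher and the 0 of 10 lower stayed at 0 under each pseudocount, scaling, filter and threshold tried. The filters could not change these counts, since all 10 genes average 10 FPKM or more. Nor could the 3-fold threshold, which is stricter. Scaling to the same FPKM sum raised log2 ratios of genes averaging 10 FPKM or more by 0.05, and scaling to a median of 0 by 0.13. The median log2 ratio of the 10 genes was 0.26 after the latter, and their mean without scaling was 0.0332. Clec5a then stood at -0.00219, so its direction is not set. Among the other lists, a median of 0 turned the median log2 ratio of the TREM family to 0.0728, of the ligands to 0.0869 and of the transcription factors to 0.0377. The same sum turned that of the ligands to 0.0105. Means turned the sign for the ligands (0.0725), the CARD9 module (0.15) and the other adaptors and their receptors (-0.18). The cause was not tested. Coding lengths, added after seeing the data, gave intervals that include no difference for Clec4e (0.971 to 1.11) and Trem1 (0.994 to 1.29). No paired analysis was possible because each group has 1 library. Depth limits Clec12a and Hcst most, with about 122 and 138 reads with ATPγS, and 124 and 78 in control.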
